A study of Arabidopsis thaliana with 8 samples.

Results

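The transcripts of 9 Arabidopsis thaliana genes of active DNA demethylation were followed through 6 comparisons of a silencing mutant with wild type. The 9 genes were chosen by locus identifier and were found among the 34133 entries of every table. They comprise 4 DNA glycosylase genes (ROS1, DME, DML2 and DML3), 3 genes for proteins that guide or regulate ROS1 (IDM1, IDM2 and MBD7) and 2 genes for enzymes that process the cut DNA (ZDP and APE1L). The authors' test was run on all 9 genes in each of the 6 tables, so no member was lost to a filter on low values.

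The material was whole seedlings in the Col-0 background, aged 10 days and raised on plates at 22 °C with 16 h of light a day. There were 2 libraries of wild type (WT), 2 of mom1, and 1 of each further mutant, which the labels call pial1/2, pial2, mom1pial2 and nrpe1. MOM1 is a nuclear silencing protein, PIAL1 and PIAL2 resemble SUMO E3 ligases and, by the title of the series, form a complex with it. NRPE1 is the catalytic subunit of polymerase V, which acts in RNA-directed DNA methylation. No mutant allele is named in the labels, and nothing there states that libraries of 1 genotype came from separate plants or cultures. Each table pairs 1 mutant library with 1 WT library: WT replicate 1 with mom1 replicate 1, pial1/2 and nrpe1 (the first set), and WT replicate 2 with mom1 replicate 2, pial2 and mom1pial2 (the second set). Tables of 1 set therefore share their WT library.

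Plants remove 5-methylcytosine by base excision. A glycosylase of the DEMETER family cuts the methylated base out and nicks the strand, a phosphatase or an endonuclease then cleans the end of the gap, and a polymerase and a ligase fill and seal it. ROS1 is the main such glycosylase of vegetative tissue, where it opposes RNA-directed DNA methylation, whereas DME is best known for its action in the central cell and in pollen. In earlier work ROS1 transcripts were low in mutants that lose DNA methylation, and methylation of a short stretch of the ROS1 promoter promoted its transcription. That background is why ROS1 is of interest in mutants of the methylation pathway.

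ROS1 (AT2G36490) lies on the minus strand of chromosome 2, and the deposited tables give its interval as 15308021 to 15314807 on TAIR10. The RefSeq gene on TAIR10.1 starts transcription at the same base and ends further downstream. Its upstream neighbour, AT2G36500, begins 3065 bases away, and its downstream neighbour, AT2G36480, ends 97 bases from it. The 300 bases upstream of ROS1 and of DME are printed because the most abundant glycosylase transcripts in WT were those of these 2 genes and 1 of them fell in nrpe1. CG dinucleotides, a context that plant methyltransferases act on, are in capitals, and other cytosine contexts were neither marked nor counted. The sequences read 5′ to 3′ on the strand of each gene, from the RefSeq TAIR10.1 genome. ROS1 is at chr2:15314808-15315107 on the minus strand and DME at chr5:1308799-1309098 on the plus strand.
ROS1: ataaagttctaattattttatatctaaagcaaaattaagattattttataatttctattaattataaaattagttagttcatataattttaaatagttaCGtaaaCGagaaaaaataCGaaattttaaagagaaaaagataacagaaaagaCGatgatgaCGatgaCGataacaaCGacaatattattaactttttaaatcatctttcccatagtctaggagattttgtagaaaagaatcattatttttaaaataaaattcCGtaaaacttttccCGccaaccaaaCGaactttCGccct
DME: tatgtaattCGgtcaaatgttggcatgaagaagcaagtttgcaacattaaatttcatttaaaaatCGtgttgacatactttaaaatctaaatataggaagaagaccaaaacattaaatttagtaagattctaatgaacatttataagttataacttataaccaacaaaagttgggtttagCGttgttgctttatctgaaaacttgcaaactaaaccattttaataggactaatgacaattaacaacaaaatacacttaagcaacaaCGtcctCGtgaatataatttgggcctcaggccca

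The ROS1 window holds 11 CG dinucleotides in 300 bases, although its GC content is 24%. Of 27443 windows of the same length upstream of protein-coding genes, 14.5% hold 11 CG or more, and the median window holds 6 at a GC content of 31.3%. The DME window holds 5, a number that 62.1% of all windows reach, and those of DML2, DML3 and MBD7 hold 3, 4 and 2. The windows of IDM2 and APE1L hold 10 each, a number that 19.0% of all windows reach. Both overlap another annotated gene, as does the window of MBD7, whereas those of ROS1 and the remaining members overlap none. The windows of IDM1 and ZDP hold 8 each (31.7%). ROS1 had the highest count of the members, with IDM2 and APE1L next. Whether the CG count bears on the nrpe1 values was not tested. CG reads the same on both strands, so 1 count covers both. These counts describe the sequence, and methylation was not measured here.

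The mutated genes and the tissue were looked at first. MOM1, NRPE1 and PIAL2 were called lower by the authors' deposited tables in every library whose label names them, except in the library labelled pial1/2. There PIAL2 was at 4.79 FPKM (fragments per kilobase of transcript, scaled to library size) against 6.47 in WT and PIAL1 at 11.3 against 11.7, and neither was called, so transcript level does not check that label. In nrpe1 the NRPE1 transcript stood at 1.16 FPKM against 4.61, with a q-value listed as 0 in the authors' deposited table. The leaf genes RBCS1A, RBCS3B, LHCB3 and LHCA1 summed to between 20276 and 29601 FPKM in WT, and the root genes PRP3, EXPA7, PHT1;1 and THAS to between 54.2 and 66.1 FPKM. The 3 flower genes AP3, PI and AG summed to at most 1.52 FPKM in any library. In nrpe1 0 of the 4 leaf and 0 of the 4 root genes were called by the authors, and elsewhere PHT1;1 was called lower in the library labelled pial1/2, PRP3 in mom1 replicate 2 and pial2, and THAS in all 3 tables of the second set. The files used here give FPKM only, so the depth is unknown. Among low FPKM values the most common ratio of mutant to WT, which follows what 1 fragment is worth, was 0.664 in mom1 replicate 1 and between 0.993 and 1.13 in the other 5 tables.

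ROS1 fell to 11.5% of its WT level in nrpe1, by the test of the authors, and was not called in the other 5 mutant libraries. In the nrpe1 table ROS1 stood at 16.1 FPKM in WT and at 1.84 FPKM in nrpe1. In the mom1 tables it was at 15.04 FPKM against 16.1 in WT for replicate 1 and at 12.4 against 14.5 for replicate 2. It was at 16.3 FPKM against 16.0 in the library labelled pial1/2, at 15.1 against 14.7 in pial2 and at 15.2 against 14.7 in mom1pial2. The nrpe1 library was thus the only low one of the 8, and the other 7 lay between 12.4 and 16.3 FPKM, with the caution that tables were normalized separately.

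**Figure D1:**
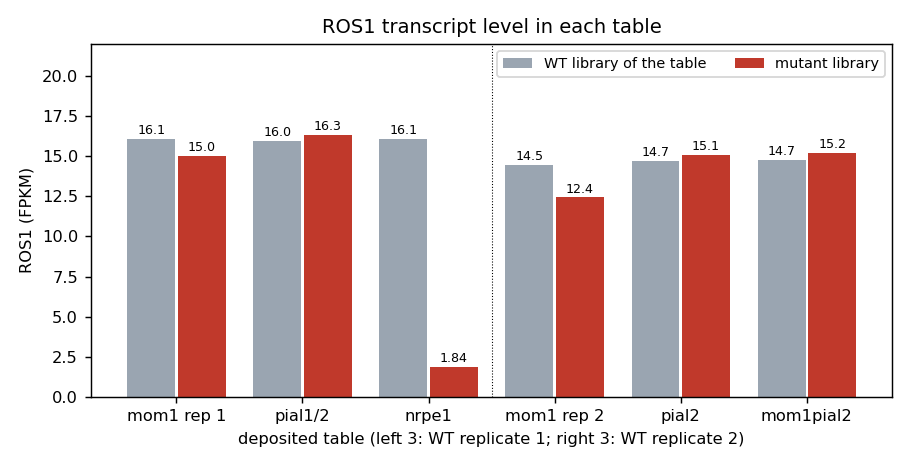
ROS1 level (FPKM, vertical axis from 0) in the 6 deposited tables, with the WT library of the table in grey and the mutant library in red, 1 library a bar and no error bars. The nrpe1 bar stands at 1.84 FPKM beside a WT bar at 16.1, and the other mutant bars lie between 12.4 and 16.3.

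The ratio of WT to nrpe1 was 8.72. On the log2 scale of FPKM plus a pseudocount of 1 the change was -2.59, and without a pseudocount it was -3.12. The authors' deposited table called ROS1 lower in nrpe1, with a q-value listed as 0. Across all genes of the authors' deposited table for nrpe1, 1.87% were called in either direction and 0.67% were called lower. With 1 nrpe1 library this difference has no replicate check, since the q-value of the authors compares 2 libraries. In bulk seedlings, fewer cells with the transcript and less transcript per cell cannot be told apart.

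The size of the ROS1 change can be placed among all genes of that table. Of 21924 tested genes, 32 had a lower log2 ratio than ROS1 in nrpe1, and 31 of them were listed at 0 FPKM in nrpe1 and were not called. The remaining gene, AT1G53490, named here after its values were seen, went from 19.3 to 2.37 FPKM (log2 ratio -2.59) and was called in the authors' deposited table. ROS1 therefore ranked second from the bottom among the 147 genes called lower. In the other tables ROS1 sat well inside the distribution, with 17.1% to 60.4% of tested genes below it.

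**Figure D2:**
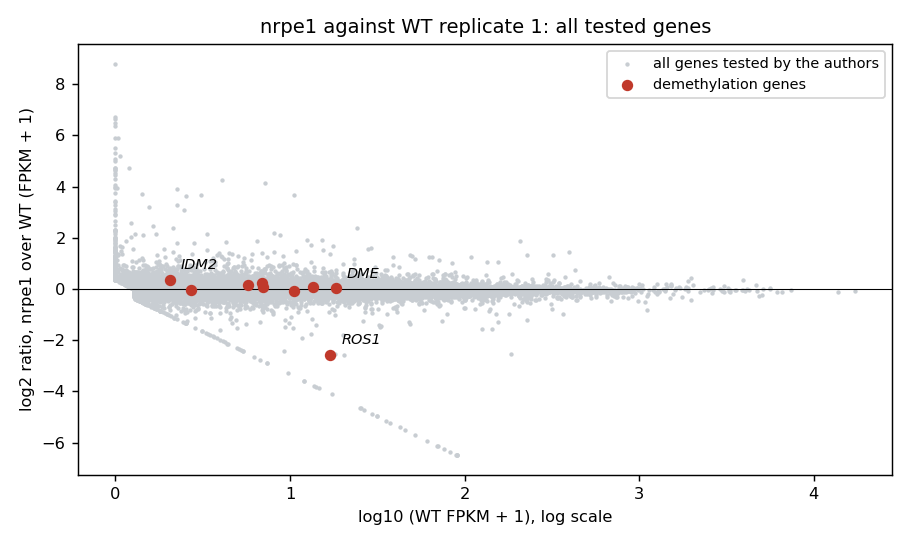
Log2 ratio of nrpe1 over WT replicate 1 (FPKM plus 1, vertical axis) against the WT level (log10 of FPKM plus 1, horizontal axis) for the 21924 tested genes in grey and the 9 demethylation genes in red; the straight lower edge is formed by genes listed at 0 in nrpe1. ROS1 lies at -2.59, and the other 8 red points lie between -0.10 and 0.34.

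A limma fit over the 6 within-table ratios, with 1 coefficient per mutant, was used to set the nrpe1 change against the spread between the mom1 tables. It assumes that nrpe1, with 1 library, varies like mom1, and it treats the 6 ratios as independent. The ratios of nrpe1 and mom1 replicate 1 share WT replicate 1. The interval and p of the difference between nrpe1 and mom1 do not allow for that. In that fit the ROS1 ratio in nrpe1 had a 95% interval of -2.96 to -2.21 and an unadjusted limma p of 0.000187. After adjustment over 20839 genes the limma p was 0.186, so ROS1 did not pass. The difference between the ROS1 ratios of nrpe1 and mom1 was -2.44 (95% interval -2.90 to -1.98), with an unadjusted limma p of 0.000415 and an adjusted limma p of 0.279. Neither contrast had any call among all genes (0 of 20839), while 703 genes in nrpe1 and 491 in the difference had an unadjusted limma p under 0.05. The fit has 1 residual degree of freedom.

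In mom1, where 2 tables exist, ROS1 changed by -0.15 ± 0.08 (log2, SD, n = 2 tables). It was lower than WT in both, and the limma fit of these 2 ratios gave a 95% interval of -0.42 to 0.12 and an adjusted p of 0.824. For the single libraries, the fit over the 6 ratios gave ROS1 intervals of -0.35 to 0.41 in the library labelled pial1/2, -0.34 to 0.41 in pial2 and -0.33 to 0.42 in mom1pial2. The log2 change of -2.59 seen in nrpe1 lies outside these intervals, while changes within their bounds are not excluded. The widths come from the spread between the mom1 tables, so the bounds are no limit of detection for 1 library.

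The genes on either side of ROS1 did not pass the authors' test in any table. AT2G36500, which lies beyond the upstream gap, was at 1.34 FPKM in nrpe1 against 1.13 in WT. AT2G36480, the downstream gene, was at 7.69 FPKM against 8.27. In the authors' deposited table for nrpe1 both had a q-value of 1.

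The other glycosylase genes were not called in any table. DME (AT5G04560, chromosome 5, 1309193 to 1318401) was at 17.6 FPKM in nrpe1 against 17.3 in WT, and at 17.2 against 17.2 in the library labelled pial1/2. In mom1 it was at 14.8 FPKM against 17.3 in replicate 1 and at 6.62 against 7.72 in replicate 2. DME was lower than WT in both mom1 tables, with ratios that averaged -0.20 ± 0.01 on the log2 scale (SD, n = 2), and did not pass limma (95% interval -0.46 to 0.05, adjusted p = 0.814). In pial2 and mom1pial2 it was at 6.43 and 7.16 FPKM against 7.85 and 7.87.

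DML2 (AT3G10010, chromosome 3, 3081814 to 3088195), a paralog of ROS1 also active in vegetative tissue, was at 6.33 FPKM in nrpe1 against 6.03 in WT. Its ratios over the 6 tables lay between -0.16 and 0.06 on the log2 scale. In mom1 they averaged -0.15 ± 0.01 (SD, n = 2), and the adjusted p from limma was 0.814. DML3 (AT4G34060, chromosome 4, 16314003 to 16319426), the remaining paralog, was the least abundant glycosylase transcript, at 1.66 FPKM in nrpe1 against 1.73 in WT. It was at 0.981 FPKM in mom1pial2 against 1.52 in WT, and at 2.05 in pial2 against 1.51. These opposite values, -0.35 and 0.28 on the log2 scale, were not called in the authors' deposited tables (q-values of 0.664 and 0.528). In mom1 the log2 ratio was 0.07 in both tables.

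**Figure D3:**
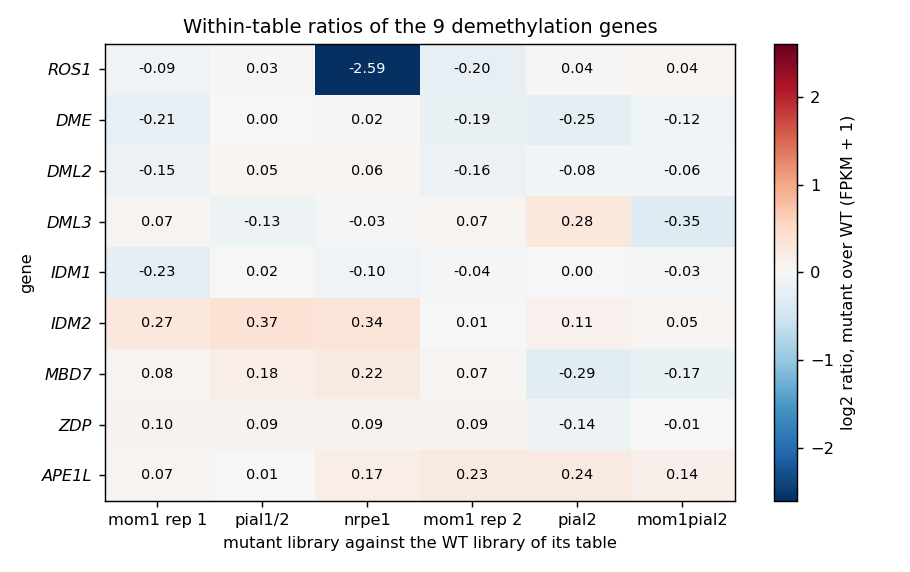
Log2 ratio of mutant over WT (FPKM plus 1) for the 9 genes in rows and the 6 tables in columns, 1 ratio a cell, blue for lower and red for higher in the mutant. The ROS1 cell of nrpe1 is at -2.59, and every other cell lies between -0.35 and 0.37.

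The genes for proteins that act with ROS1 were not called in any table. IDM1 (AT3G14980, chromosome 3, 5039931 to 5045403) encodes a histone acetyltransferase that makes chromatin accessible to ROS1. It was at 8.89 FPKM in nrpe1 against 9.57 in WT, and in mom1 at 8.02 against 9.57 in replicate 1 and 5.95 against 6.17 in replicate 2. MBD7 (AT5G59800, chromosome 5, 24094474 to 24096532), a protein that binds methylated DNA and recruits the IDM proteins, was at 7.04 FPKM in nrpe1 against 5.88. It was higher than WT in the 3 tables of the first set and in mom1 replicate 2, but lower in pial2 (6.24 against 7.87 FPKM) and mom1pial2 (6.91 against 7.88).

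IDM2 (AT1G54840, chromosome 1, interval 20451083 to 20454249), which encodes an alpha-crystallin domain protein that binds IDM1, had the highest ratio of the members in each table of the first set. It was at 1.46 FPKM in mom1 replicate 1, at 1.64 in the library labelled pial1/2 and at 1.59 in nrpe1, against 1.04 to 1.05 in WT. These 3 values share 1 WT library. In the second set it was at 2.71, 3.03 and 2.87 FPKM in mom1, pial2 and mom1pial2 against 2.70 to 2.75 in WT. The lowest q-value of IDM2 in the authors' deposited tables was 0.981. IDM2 is listed in an interval shared with NF-YC3 (AT1G54830), whose level of 25.7 FPKM in WT replicate 1 was far higher, and reads may be split between the 2 entries. IDM1 likewise shares its interval with AT3G14981.

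The repair genes were not called in any table either. ZDP (AT3G14890, chromosome 3, 5008742 to 5013265), the phosphatase that trims the gap left by ROS1, was at 13.4 FPKM in nrpe1 against 12.5 and between 11.8 and 13.8 in the other mutants. Its mom1 log2 ratios averaged 0.10 ± 0.00 (SD, n = 2), and the adjusted p from limma was 0.874. APE1L (AT3G48425, chromosome 3, 17931818 to 17934744), an endonuclease of the same step, was above WT in all 6 tables. Its log2 ratios ran from 0.01 in the library labelled pial1/2 to 0.24 in pial2, and the lowest q-value in the authors' deposited tables was 0.739. The tables share WT libraries, so these 6 ratios are not 6 independent observations.

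Counted together, 1 of the 9 genes was called in the nrpe1 table of the authors and 0 of 9 in each of the other 5. The share of all tested genes called in those 5 authors' deposited tables was 2.12% for mom1 replicate 1, 1.19% for the library labelled pial1/2, 2.34% for mom1 replicate 2, 2.44% for pial2 and 1.98% for mom1pial2. At such shares a count of 0 in 9 genes is near the background. At an unadjusted p under 0.05 in the authors' deposited tables, 0 of the 8 genes other than ROS1 passed in any table, and the lowest such p was 0.0528, for DML3 in mom1pial2. Of all genes tested in the authors' deposited tables, 6.35% had an unadjusted p under 0.05 in mom1 replicate 1, 6.47% in the library labelled pial1/2, 7.11% in nrpe1, 7.71% in mom1 replicate 2, 11.2% in pial2 and 7.8% in mom1pial2. Beside those shares a count of 0 in 8 genes is again near the background. By limma 0 of 9 members passed in mom1, with 0.0877% of 20536 genes called, and the lowest unadjusted limma p of the 9 was 0.0881, for DME. The median log2 ratio of the members was 0.06 in nrpe1, beside 0.00 over all tested genes, and lay between -0.03 and 0.07 in the other tables.

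Genes that share steps with the 9 members gave no called change. Of 13 other demethylation genes, 13 were tested in every table and 0 were called in any of the authors' deposited tables. Of all tested genes, between 1.19% (the library labelled pial1/2) and 2.44% (pial2) were called in a table. A count of 0 in 13 genes is near that background. They include ROS3 (an RNA-binding regulator), ARP and APE2 (endonucleases), LIG1 and XRCC1 (ligation), MET18 and AE7 (iron-sulfur cluster assembly), the FACT subunits SPT16 and SSRP1, and the chromatin proteins MBD9, PIE1 and ARP6. Their median log2 ratio was 0.01 in nrpe1 and lay between -0.13 and 0.02 elsewhere. IDM3, another partner of IDM1, was at 3.02 FPKM against 2.00 in mom1 replicate 1 and at 4.80 against 3.27 in mom1 replicate 2, with q-values of 0.822 and 0.698 in the authors' deposited tables.

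Of 16 methylation genes on whose products the ROS1 level may depend, among them MET1, subunits and partners of RNA polymerases IV and V, and the methyl readers SUVH1 and SUVH3, 1 was called in nrpe1 and 0 in the other tables. The called gene was NRPE1, the mutated gene itself. Of all tested genes, 1.87% were called in nrpe1 and between 1.19% and 2.44% in the other tables. The counts of 0 are near that background. MET1, the maintenance methyltransferase, was at 17.4 FPKM in nrpe1 against 17.5 in WT. SUVH1 and SUVH3, which in earlier work promoted ROS1 transcription, were at 9.61 and 9.63 FPKM against 9.04 and 9.93. NRPD1, the largest subunit of polymerase IV, was at 2.80 FPKM in nrpe1 against 1.93 and was not called in the authors' deposited table (q-value 0.121).

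Of 6 listed targets of the glycosylases, 2 were tested by the authors in each table. RMG1, listed as a ROS1 target, and FWA, MEA and FIS2, listed as DME targets, were not tested. They were at most at 0.148 FPKM in any library. That highest value was FWA in nrpe1, beside a WT library in which it is listed at 0. EPF2, a stomatal patterning gene that needs ROS1 to stay unmethylated, was at 9.14 FPKM in nrpe1 against 7.56 in WT. DOGL4, a seed gene demethylated by ROS1, was at 0.711 FPKM against 0.758. Neither was called in any of the authors' deposited tables.

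Among 360 genes at 1 FPKM or more in every column and with a log2 ratio of at least 1 in size in some table, those with the pattern most like ROS1 over the 6 tables were AT1G57620, AT5G11330, AT1G56090, AT1G54120 and AT1G05030. Their Pearson correlations with ROS1 ran from 0.977 to 0.989 over the 6 ratios, which share 2 WT libraries, and rest on the nrpe1 value. In nrpe1 AT1G57620 stood at 9.93 FPKM against 25.1 in WT, AT5G11330 at 11.2 against 31.3 and AT1G56090 at 2.59 against 9.45. AT1G54120 was at 3.77 FPKM against 9.20 and AT1G05030 at 2.34 against 8.41. The authors' deposited tables called each of the 5 in nrpe1 and in no other mutant. The genes were picked for likeness to ROS1, so these calls largely follow from the selection and show no link to ROS1. The ROS1 log2 ratio of -2.59 was larger in size than those of the 5, which lay between -1.54 and -1.10.

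Levels of 5 of the 9 members did not overlap between the library sets, and neither did those of 65% of the 20834 genes with 1 FPKM or more in any library. The count of members is near that background and is no result about them; their levels are given as a description. DME was at 17.3 FPKM in WT replicate 1 and at 7.72 in WT replicate 2. The 4 libraries of the first set lay between 14.8 and 17.6 FPKM and the 4 of the second between 6.43 and 7.72, so the sets did not overlap. DML2 and IDM1 were also higher in the first set without overlap, from 5.35 to 6.33 FPKM against 3.24 to 3.74 for DML2 and from 8.02 to 9.67 against 5.95 to 6.25 for IDM1. IDM2 and APE1L were lower in the first set without overlap, from 1.05 to 1.64 FPKM against 2.70 to 3.03 for IDM2 and from 4.73 to 5.45 against 7.55 to 9.23 for APE1L. ROS1, DML3, MBD7 and ZDP overlapped between the sets.

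Each table was normalized on its own, and from WT replicate 1 to WT replicate 2 the log2 level of the median gene changed by -0.07. Of 20192 genes 15.4% changed by 2-fold or more from one WT library to the other, and 7.09% were lower by that much in WT replicate 2, as DME was at -1.07. The clock genes moved with the sets, CCA1 from 10.1 to 148 FPKM and PRR5 from 31.2 to 0.315 between WT replicates 1 and 2. The seed genes CRU3, OLEO1 and SESA2 summed to between 0.157 and 0.321 FPKM in the libraries of the first set, to 10.1 in WT replicate 2, and to 0.496, 0.232 and 5.13 in mom1, pial2 and mom1pial2 of the second. Their part in the set differences was not tested, and set and sampling cannot be told apart. The nrpe1 comparison lies within the first set, where the clock genes CCA1 and PRR5 were at 9.33 and 29.2 FPKM in nrpe1 and at 10.1 and 31.2 in WT. In mom1 replicate 1 of the same set CCA1 was at 15.2 FPKM and PRR5 at 19.6, and PRR5 was called lower there in the authors' deposited table (q-value 0.00279). That library is 1 of the pair behind each mom1 mean and behind the spread in the limma test of nrpe1, and the part of the clock difference in them was not tested. Without it the ROS1 difference of nrpe1 minus mom1 was -2.38, a value with no test.

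**Figure D4:**
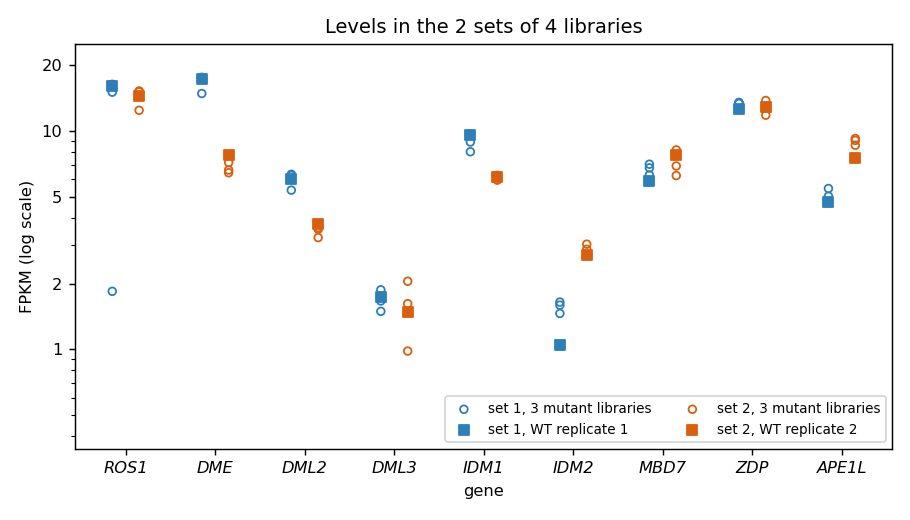
FPKM (log scale) of the 9 genes in the 4 libraries of the first set (blue) and the 4 of the second (orange), with WT as filled squares and mutants as open circles, each WT taken from its mom1 table. The blue DME marks span 14.8 to 17.6 FPKM and the orange ones 6.43 to 7.72, and the single low ROS1 circle at 1.84 is nrpe1.

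FPKM is scaled by length, so the levels of the 9 transcripts can be ordered. The places of IDM1 and IDM2 are less sure, because each shares its interval with another entry and reads may be split. In WT replicate 1 the order from the top was DME, ROS1, ZDP, IDM1, DML2, MBD7, APE1L, DML3 and IDM2. In WT replicate 2 ROS1 led at 14.5 FPKM, followed by ZDP at 12.8, while MBD7, DME and APE1L stood close together at 7.73, 7.72 and 7.55. The DME range over the WT libraries, 7.72 to 17.3 FPKM, took in ROS1 (14.5 to 16.1) and ZDP (12.5 to 13.1), so the top order is not fixed by these data. In nrpe1 the ROS1 transcript, at 1.84 FPKM, dropped to the level of DML3 (1.66) and IDM2 (1.59), below the other members.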

How the data were processed

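Polyadenylated RNA from 8 seedling libraries was sequenced by Illumina. Per the submitters' processing notes, reads were aligned to TAIR10 with TopHat2 2.0.12 and Bowtie, and quantified with Cufflinks 2.2.1 and Cuffdiff; strand, read length and annotation are not given in the sources used here. Per the file headers, the authors deposited FPKM for 1 mutant and 1 WT library in each of 6 tables, with a p-value and q-value per gene. From table to table, values of a given WT library changed by a constant factor of 0.995 to 1.02, so ratios were taken within tables. The deposited q-values matched a Benjamini-Hochberg adjustment over tested genes to within 4.69e-06, and a gene was taken as called at q below 0.05.

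Log2 ratios used FPKM plus a pseudocount of 1. The pair of mom1 ratios went into limma 3.58.1 (R 4.3.3) as a model of their mean with empirical Bayes variances. Tests were two-sided, intervals were at 95%, and p-values were adjusted over genes with 1 FPKM or more in at least 1 of the 4 libraries by Benjamini-Hochberg; a second fit took all 6 ratios, with the same minimum in any library. Entries with a failed or excess-data status were left out of the fits. The fit of the pair of mom1 ratios was tried on simulated data, and the fit over all 6 ratios was not. The ratios pair libraries by replicate number, as the tables of the authors do; the WT and mom1 differences between replicates correlated across 20163 genes (r = 0.863). These p-values measure only the spread between these samples, which may be technical.

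Locus boundaries matched TAIR10.1 at the start or the end for 17041 of 33389 entries, and upstream sequences were read from that genome. Named genes were the 9 members, other listed genes that were called or had a log2 ratio of at least 1 in size, and the 5 genes most like ROS1. By that rule the marker genes PRP3, PHT1;1, THAS, CRU3, SESA2, OLEO1 and PRR5 are named, some only in sums. Other genes given values, namely PIAL1, IDM3, MET1, NRPD1, SUVH1, SUVH3, CCA1, EPF2, FWA, DOGL4, NF-YC3, AT1G53490 and the ROS1 neighbours AT2G36480 and AT2G36500, fall outside it and were chosen after their values had been seen. The members and lists were chosen with earlier results of these data known. Python 3.11.15, numpy 2.4.6 and pandas 2.3.3 were used for the rest.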

Additional observations from a re-analysis of the deposited data

How the results depend on the processing

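The ROS1 call in nrpe1 rests on the test of the authors. With limma over the 6 within-table ratios, where the spread comes from the mom1 tables, the ROS1 ratio of -2.59 had an adjusted p of 0.186, and 0 members passed in nrpe1 instead of 1. That fit has 1 residual degree of freedom and called 0 genes in nrpe1. A q-value limit of 0.01, or an added minimum of 1 on the log2 ratio, left the count of called members as it was in all 6 tables. The ROS1 ratio kept its direction in every table with a pseudocount of 0.1 and with centred ratios. In nrpe1 it was -3.06 with a pseudocount of 0.1 and, added after the data were seen, -3.12 with none.

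In mom1, 0 members passed limma under each alternative tried, with the replicate block as well as with no replicate block, where the lowest adjusted p was 0.99997 instead of 0.814. The ROS1 difference of nrpe1 minus mom1 was -2.37 with no replicate block (adjusted p = 0.4996) and -2.90 with a pseudocount of 0.1. Over the alternatives with a test its adjusted p ranged from 0.162 to 1. Leaving out 1 mom1 replicate gave -2.50 to -2.38, a value with no test.

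With 1 library for nrpe1, pial1/2, pial2 and mom1pial2 no replicate can be left out there. DML3 and IDM2 had the lowest levels of the 9 members in WT, where depth limits a ratio most.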
